A study of Mus musculus with 14 samples.

Results

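Grin2d, which encodes the GluN2D subunit of the NMDA receptor, and 8 genes that carry a cytosolic calcium signal to kinases and phosphatases were followed through 14 RNA-seq libraries of 4T1 spheroids. The members are Grin2d, Calm2, Camkk2, Camk1, Camk2d, Camk2g, Ppp3ca, Ppp3cb and Ppp3r1. They were selected by gene symbol, and all 9 were present among the 19525 genes of the count table. 4T1 is a mouse triple-negative breast cancer line, and it was grown here for 5 days as spheroids in lung-like medium (LLM), which imitates the nutrient content of the lung. Control spheroids carried a non-targeting hairpin and received 700 µM aspartate (ASPshSCR, n = 4) or no added aspartate (NoASPshSCR, n = 3). Spheroids with a hairpin against Grin2d (ASPshGRIN2D, n = 3) or against Dhps (ASPshDHPS, n = 4) all received 700 µM aspartate. Every group therefore carried a lentiviral hairpin, and no knockdown without aspartate was analysed here. The knockdown lines were drug-selected pools and not clones, so each may hold cells with unequal knockdown. RNA came from cytosolic lysate after a wash with cycloheximide, a drug that stalls ribosomes, and it was the input material of a polysome profiling experiment.

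NMDA receptors are ligand-gated cation channels that admit calcium. They are assembled from GluN1, the glycine-binding subunit without which no functional channel forms, and from GluN2 subunits such as GluN2D, which bind glutamate or aspartate. Calcium that enters the cell binds calmodulin, and loaded calmodulin switches on CaMKK2, CaMKI, the multi-subunit kinase CaMKII and the phosphatase calcineurin. CaMKK2 phosphorylates CaMKI, while calcineurin, a dimer of a catalytic A subunit (Ppp3ca or Ppp3cb) and the calcium-binding B subunit Ppp3r1, dephosphorylates the NFAT transcription factors. Dhps encodes deoxyhypusine synthase, which carries out the opening step of hypusination of the translation factor eIF5A.

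Several of these genes have close relatives, and what a count means depends on whether a read can be assigned to the right copy. Calm2 and Calm3 encode the same calmodulin protein from different DNA. The 120 opening coding bases of the GENCODE M21 (GRCm38) transcripts are shown, with capitals at the 18 positions where they differ.
Calm2: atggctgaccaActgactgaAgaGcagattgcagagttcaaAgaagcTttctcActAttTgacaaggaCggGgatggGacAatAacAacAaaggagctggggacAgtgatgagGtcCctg
Calm3: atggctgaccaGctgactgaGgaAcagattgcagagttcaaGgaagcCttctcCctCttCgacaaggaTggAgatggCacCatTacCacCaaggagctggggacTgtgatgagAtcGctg

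Over the 447 coding bases Calm2 was 82.6% identical to Calm3, and the longest run that they shared without a mismatch was 17 bases. The same comparison is shown for the CaMKII delta and gamma genes, whose values are compared with each other, with capitals at the 29 positions that differ.
Camk2d: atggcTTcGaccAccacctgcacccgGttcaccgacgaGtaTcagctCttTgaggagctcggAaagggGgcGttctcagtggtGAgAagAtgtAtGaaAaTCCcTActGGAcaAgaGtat
Camk2g: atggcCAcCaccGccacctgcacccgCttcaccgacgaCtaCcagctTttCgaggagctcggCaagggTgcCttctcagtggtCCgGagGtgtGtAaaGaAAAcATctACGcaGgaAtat

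Camk2d and Camk2g were 77.1% identical over 1434 aligned coding bases with a longest shared run of 23 bases, and Ppp3ca and Ppp3cb were 74.0% identical over 1545 aligned coding bases with a longest shared run of 20 bases. Sharing of reads among these copies is therefore limited to short stretches, whereas processed pseudogenes of the calmodulin genes were not examined.

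The libraries held between 12731123 and 23231378 counts. Replicates of a group differed by more than counting noise in all 18 pairs, with a chi-square per degree of freedom between 7.69 and 41.8, so no library was a copy of another. On the first principal component of log2 CPM (counts scaled to the library total), which held 32.3% of the variance, replicate 2 of ASPshSCR lay at -25.8 and replicate 2 of NoASPshSCR at -19.7. The other 5 control libraries lay between -8.66 and 6.28, and replicate 1 of ASPshDHPS lay at the far end at 27.6. Results that change without these libraries are given both ways. The epithelial markers Epcam, Krt8, Krt18, Krt19 and Cdh1 were abundant, at 1309 or more counts in every library. Of the leukocyte and endothelial markers, Ptprc, Itgam, Pecam1 and Cdh5 had at most 12 counts in any library. The fibroblast markers differed, as Dcn had at most 1 count and Pdgfra had 357 to 730. Summed over the 5 epithelial markers, the level was 4099 to 4251 CPM in ASPshSCR and 4024 to 4186 CPM in NoASPshSCR, against 3116 to 3362 CPM in ASPshGRIN2D and 3213 to 3749 CPM in ASPshDHPS. Krt8 and Krt18, with means of 1546 and 1070 CPM, weigh most in this sum, and the single markers were not compared between groups. Of 5 listed neuronal markers 2 were measured. Map2 had 277 to 578 counts and Tubb3 1 to 8, with means of 22.5 and 0.231 CPM, so their sum is nearly all Map2. This sum was 23.6 to 25.7 CPM in ASPshSCR and 24.1 to 24.5 CPM in NoASPshSCR. It was 19.6 to 23.8 CPM in ASPshGRIN2D and 18.7 to 21.6 CPM in ASPshDHPS, the last without overlap with the controls. In bulk RNA, fewer cells of a type and less RNA per cell cannot be told apart.

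Knockdown of the targets was checked first. Dhps, targeted in ASPshDHPS, was read at 5.57, 5.46, 7.62 and 9.08 CPM there and at 18.7, 22.1, 20.2 and 16.7 CPM in ASPshSCR. This is a log2 fold change of -1.48 ± 0.15 (SE) with an adjusted p of 8.31e-06 by edgeR's quasi-likelihood test with Benjamini-Hochberg adjustment over all genes, and the groups did not overlap. Grin2d, targeted in ASPshGRIN2D, was read at only 40, 37 and 47 counts in the 3 knockdown libraries and at 76, 58, 75 and 53 counts in ASPshSCR. At this depth the reduction of Grin2d mRNA did not pass the test, as given in detail with the receptor.

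The 9 transcripts spanned a wide range of abundance. Divided by the length of the principal GENCODE transcript, the mean level in ASPshSCR was 508 CPM per kilobase for Calm2, 88.9 for Ppp3ca, 50.7 for Ppp3r1, 43.0 for Camk1, 26.6 for Camk2d, 23.6 for Ppp3cb, 21.0 for Camkk2, 17.1 for Camk2g and 0.66 for Grin2d. Each neighbouring pair in this order was separated by more than the sum of the 2 SDs over the 4 libraries. The choice of transcript mattered for a pair of genes. With the longest protein-coding transcript Ppp3ca came to 41.0 CPM per kilobase, below Ppp3r1 and Camk1, and Camkk2 came to 11.9, below Camk2g. Calmodulin was thus the most abundant message of the group and the receptor subunit the rarest under either length.

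Across the 9 genes the differences were few. In ASPshGRIN2D against ASPshSCR 0 of the 9 were called at an adjusted p under 0.05 by edgeR, where 1.16% of all genes were called, and 1 had an unadjusted p under 0.05, where 10.4% of all genes had. In ASPshDHPS against ASPshSCR 1 of 9, Camk2g, was called lower, where 4.22% of all genes were called and 2.57% were called lower, and 2 of 9 had an unadjusted p under 0.05, where 19.3% of all genes had. In ASPshSCR against NoASPshSCR 0 of 9 were called and 0 had an unadjusted p under 0.05, where 0% and 2.17% of all genes did. With DESeq2 the counts of members were 0, 2 and 0. The first 2 comparisons share the ASPshSCR libraries and are given side by side.

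**Figure D1:**
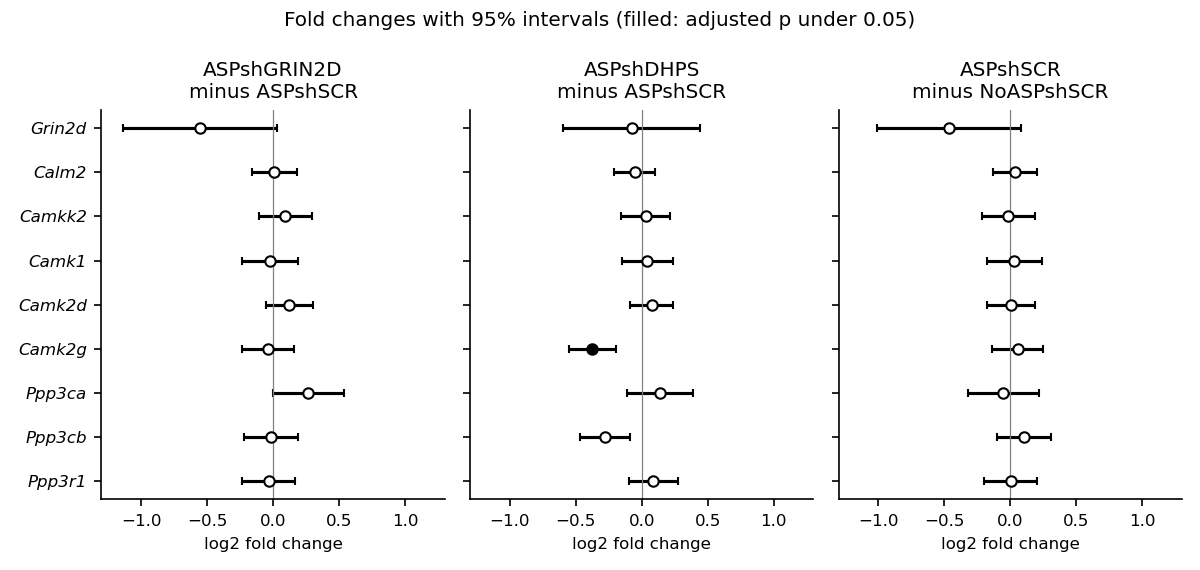
Log2 fold change of each of the 9 genes (horizontal axis) in 3 comparisons, with 95% intervals from the fit across all genes; a filled point has an adjusted p under 0.05. Camk2g in ASPshDHPS is the only filled point, and the intervals of Grin2d are the widest, reaching from -1.13 to 0.03 in ASPshGRIN2D.

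Grin2d was the scarcest of the genes, and its values were accordingly imprecise. It was read at 2.06, 2.17 and 3.13 CPM in ASPshGRIN2D and at 3.32, 3.23, 3.68 and 4.16 CPM in ASPshSCR. All 3 knockdown libraries lay below all 4 control libraries, but replicate 3 at 3.13 CPM came close to the lowest control at 3.23 CPM. In the fit the level in ASPshGRIN2D was 68.2% of that in ASPshSCR, with a 95% interval of 45.5% to 102%, a log2 fold change of -0.55 ± 0.28 (SE), an unadjusted p of 0.0621 and an adjusted p of 0.516. The difference in mean CPM was -1.14, with a two-sided exact permutation p of 0.0571, which is the smallest that the 35 ways of splitting 3 and 4 libraries allow.

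Without added aspartate Grin2d was read at 3.05, 4.85 and 6.95 CPM, so that NoASPshSCR held both the lowest value of any control library and the 2 highest values of all 14 libraries. Its range enclosed that of ASPshSCR, and the log2 fold change of ASPshSCR over NoASPshSCR was -0.47 ± 0.26 (SE) with an adjusted p of 1. In ASPshDHPS the values were 2.21, 3.26, 4.59 and 3.52 CPM, which overlapped every other group. Their log2 fold change over ASPshSCR was -0.08 ± 0.25 (SE) with an adjusted p of 0.910. Set against the mean of the other 3 groups, ASPshGRIN2D was lower by a log2 fold change of -0.68 ± 0.24 (SE), with an unadjusted p of 0.0111 and an adjusted p of 0.226. That mean takes in libraries without added aspartate and libraries with the Dhps hairpin, so this comparison does not isolate the Grin2d hairpin. Against NoASPshSCR alone, which differed in aspartate as well as in the hairpin, the log2 fold change was -1.02 ± 0.29 (SE) with an adjusted p of 0.142. This adjusted p became 0.0440 without replicate 2 of NoASPshSCR and 0.0238 without both control replicate 2 libraries. Only these 2 of 13 alternative analyses passed the threshold. Over the 13 the adjusted p reached 0.624, and the log2 fold change ran from -1.28 to -0.695.

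**Figure D2:**
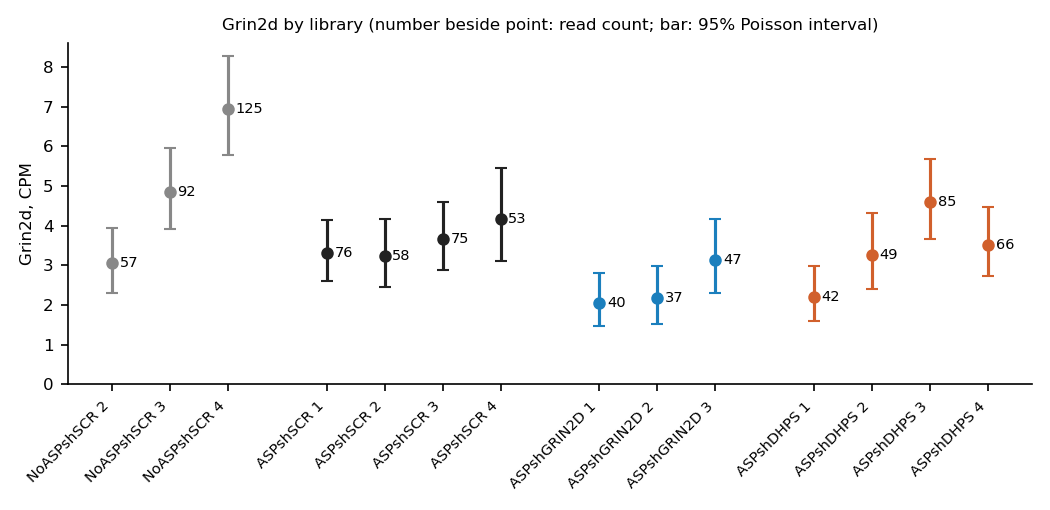
Grin2d in CPM (vertical axis) in each of the 14 libraries, with the read count beside each point and the 95% Poisson interval of that count as a bar, which covers counting error only. The ASPshGRIN2D libraries rest on 37 to 47 counts, and each of their bars overlaps those of replicates 1 and 2 of ASPshSCR and of replicate 2 of NoASPshSCR, while none reaches that of replicate 4 of NoASPshSCR.

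The partner subunit was almost unread. Grin1, which encodes GluN1, had 3 counts in all over the 14 libraries, at most 1 in a library, and was at 0 in 11 of them. In those 11 libraries a count of 0 allows a level of up to 0.131 to 0.200 CPM (3 counts), depending on the library, and this covers counting error only. Grin2d itself had 902 counts over the same libraries. Grin3b, which encodes a GluN3 subunit, also had at most 3 counts in every library, and the remaining GluN2 and GluN3 genes were not analysed here.

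No difference in Calm2 was called. This calmodulin gene was read at 602, 637 and 610 CPM in ASPshGRIN2D, at 632, 589, 600 and 628 CPM in ASPshSCR, at 599, 625 and 570 CPM in NoASPshSCR and at 643, 575, 594 and 552 CPM in ASPshDHPS. All 4 groups overlapped. In ASPshGRIN2D against ASPshSCR the log2 fold change was 0.01 ± 0.08 (SE), and its 95% interval ran from -0.16 to 0.18. In ASPshDHPS the log2 fold change over ASPshSCR was -0.05 ± 0.08 (SE), and its interval ran from -0.21 to 0.10. For aspartate it was 0.03 ± 0.08 (SE), with an interval from -0.13 to 0.20.

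Camkk2, the kinase upstream of CaMKI, lay between 51.6 and 66.3 CPM in all 14 libraries. It was tightest in ASPshSCR, at 56.6 to 58.7 CPM, and widest in ASPshDHPS, at 51.6, 66.3, 54.3 and 63.7 CPM. The groups overlapped, and the log2 fold changes were 0.09 ± 0.10 (SE) for ASPshGRIN2D, 0.03 ± 0.09 (SE) for ASPshDHPS and -0.02 ± 0.10 (SE) for aspartate. Camk1, which encodes the CaMKI alpha isoform and is a substrate of CaMKK2, lay between 56.9 and 76.3 CPM. Its groups overlapped too, with log2 fold changes of -0.02 ± 0.10 (SE), 0.04 ± 0.09 (SE) and 0.03 ± 0.10 (SE) in the same order.

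Of Camk2d and Camk2g, the most abundant CaMKII genes of these spheroids, Camk2g was lower in ASPshDHPS and no difference in Camk2d was called. Camk2g, the gamma subunit, was read at 45.1, 53.0, 46.1 and 51.9 CPM in ASPshDHPS and at 63.8, 58.1, 64.2 and 67.9 CPM in ASPshSCR. All 4 ASPshDHPS libraries were below all other 10 libraries, since NoASPshSCR had 57.3, 61.4 and 64.4 CPM and ASPshGRIN2D had 58.4, 64.6 and 62.3 CPM. The level in ASPshDHPS was 77.2% of that in ASPshSCR, with a 95% interval of 68.1% to 87.5%. Its log2 fold change was -0.37 ± 0.09 (SE) with an adjusted p of 0.0154.

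The call for Camk2g held in 13 of 15 alternative analyses and was lost when replicate 4 of ASPshSCR (adjusted p 0.0573) or replicate 3 of ASPshDHPS (adjusted p 0.0611) was left out. Without both control replicate 2 libraries the adjusted p was 0.0116. Against the other groups Camk2g was lower as well but was not called. It had a log2 fold change of -0.33 ± 0.09 (SE) against ASPshGRIN2D, with an adjusted p of 0.0559, and -0.32 ± 0.09 (SE) against NoASPshSCR, with an adjusted p of 0.0821. The summed level of the epithelial markers was also lower in ASPshDHPS, and it was lower as well in ASPshGRIN2D, where Camk2g had a log2 fold change of only -0.04 ± 0.09 (SE). The sum of Map2 and Tubb3, nearly all Map2, was lower in ASPshDHPS as well, at 18.7 to 21.6 CPM against 23.6 to 25.7 CPM in ASPshSCR. The part of the epithelial marker or Map2 levels in the Camk2g result was not tested.

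Camk2d, the delta subunit, was read at 161, 164, 139 and 155 CPM in ASPshDHPS and at 147, 155, 140 and 146 CPM in ASPshSCR. These groups overlapped, and the log2 fold change was 0.08 ± 0.08 (SE) with an adjusted p of 0.646. In ASPshGRIN2D it was read at 165, 158 and 158 CPM, above all 4 ASPshSCR libraries by a narrow margin. Its log2 fold change there was 0.12 ± 0.09 (SE) with an adjusted p of 0.642.

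Among the calcineurin genes none was called in ASPshGRIN2D or ASPshDHPS against ASPshSCR. Ppp3ca, the alpha catalytic subunit, was read at 219, 241 and 244 CPM in ASPshGRIN2D against 183, 197, 190 and 211 CPM in ASPshSCR and 200, 202 and 206 CPM in NoASPshSCR. The ASPshGRIN2D libraries were above all control libraries. The log2 fold change over ASPshSCR was 0.27 ± 0.13 (SE), with an unadjusted p of 0.0496 and an adjusted p of 0.477, so the difference was not called. Groups without overlap were found for 3 of the 9 genes, higher for Ppp3ca and Camk2d and lower for Grin2d, where 12.0% of all genes had them.

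In ASPshDHPS Ppp3ca was read at 144, 219, 239 and 255 CPM. Replicate 1 was the lowest of all 14 libraries and the other replicates were above all 4 ASPshSCR libraries. Over the 4 libraries the log2 fold change was 0.14 ± 0.12 (SE) with an adjusted p of 0.571. Without replicate 1 of ASPshDHPS it was 0.29 and its adjusted p was 0.0425. The same library held the highest value of Ppp3r1, at 189 CPM.

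Ppp3cb, the beta catalytic subunit, was read at 64.1, 85.7, 74.2 and 75.5 CPM in ASPshDHPS and at 97.2, 89.0, 88.6 and 87.4 CPM in ASPshSCR. The ASPshDHPS libraries were all lower, but replicate 2 came within 2 CPM of the lowest ASPshSCR library. NoASPshSCR had 91.0, 81.8 and 80.2 CPM, so replicate 2 of ASPshDHPS lay above 2 of these libraries and the groups overlapped. Its log2 fold change was -0.28 ± 0.09 (SE) with an unadjusted p of 0.00641 and an adjusted p of 0.0926, which does not pass the threshold. It passed with DESeq2, at an adjusted p of 0.0309, and without replicate 2 of ASPshDHPS, at 0.0465. In this comparison 2 of the 9 genes, Camk2g and Ppp3cb, had groups without overlap, where 11.1% of all genes had them. In ASPshGRIN2D Ppp3cb was read at 97.0, 88.8 and 83.4 CPM, a log2 fold change of -0.01 ± 0.10 (SE). Ppp3cb and Camk2g lie on the same chromosome, 14. Between them by the GENCODE M21 (GRCm38) order lay 10 measured genes, chosen for this look after the values were seen. Their log2 fold changes in ASPshDHPS ran from -0.86 ± 0.21 (SE) to 1.27 ± 0.46 (SE). Of these 10 genes 1 was called, 2810402E24Rik at -0.86 (adjusted p 0.0231), where 4.22% of all genes were called. An unadjusted p under 0.05 was found for 3 of the 10, where 19.3% of all genes had one.

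Ppp3r1, the regulatory B subunit that both catalytic subunits need, lay between 140 and 150 CPM in the 10 libraries outside ASPshDHPS. In ASPshDHPS it was read at 189, 145, 135 and 148 CPM, with replicate 1 set apart from the rest. The log2 fold change of ASPshDHPS over ASPshSCR was 0.09 ± 0.09 (SE) and became -0.02 without that library. In ASPshGRIN2D the log2 fold change was -0.03 ± 0.10 (SE). Neither was called.

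**Figure D3:**
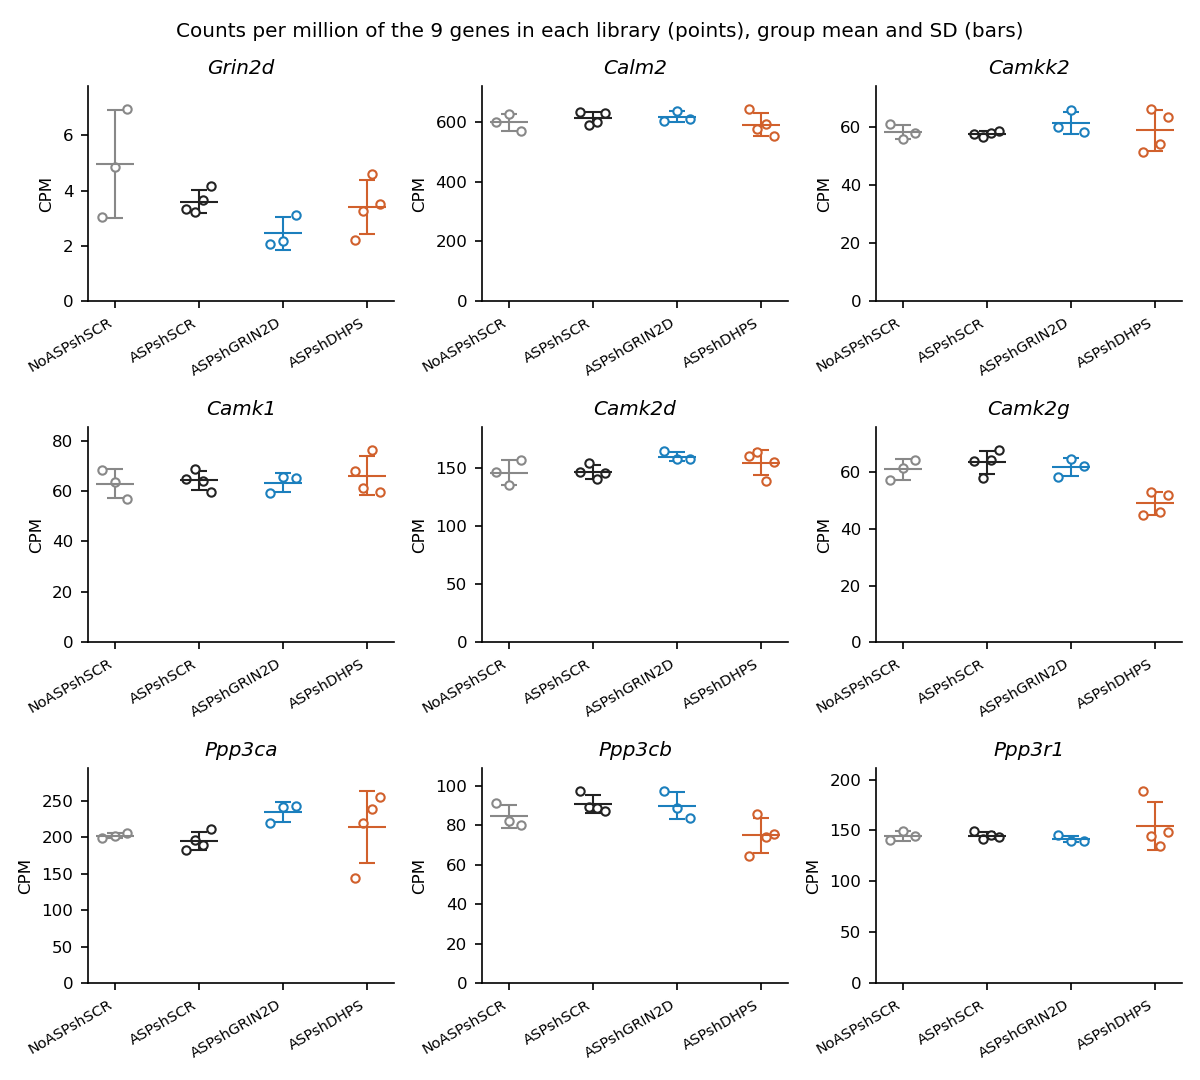
CPM (vertical axis, from 0) of the 9 genes in each library (open points), with the group mean as a horizontal bar and the SD as whiskers, for n = 3 or 4 libraries a group. The 4 ASPshDHPS points of Camk2g, at 45.1 to 53.0, sit below all others, and Ppp3ca and Ppp3r1 each have 1 ASPshDHPS point far from the rest of that group.

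Aspartate supplementation in control spheroids was not accompanied by a called difference in any of the 9 genes. Apart from Grin2d the log2 fold changes of ASPshSCR over NoASPshSCR ran from -0.05 to 0.10, and the 95% intervals of these 8 genes lay within -0.32 to 0.31. None of the 9 had groups without overlap, against 2.71% of all genes. The replicate numbers pair these libraries, and with the number as a block no member was called either, in the fit of all 14 libraries or in that of the 7 control libraries alone. Over all genes the block gave 2 calls in the fit of 14 libraries and 64 in the 7 control libraries, against 0 without it.

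Ratios between related genes were taken within each library, where library size cancels, as log2 of the ratio of counts. The ratio of Camk2d to Camk2g was 1.84, 1.63, 1.60 and 1.58 in ASPshDHPS and 1.20, 1.42, 1.13 and 1.10 in ASPshSCR on the log2 scale. The groups did not overlap, and the mean difference was 0.45. Its two-sided exact permutation p was 0.0286, the smallest that the 70 splits allow, and 0.171 after adjustment over the 9 ratio tests made. The ratio of Ppp3ca to Ppp3cb differed between the same groups by 0.39 on the log2 scale (exact permutation p 0.0571, adjusted 0.171), with overlap. The smallest unadjusted p possible was 0.0286 in ASPshDHPS against ASPshSCR and 0.0571 in the other comparisons. Over the 9 tests no adjusted p under 0.05 was therefore possible. None of the 6 differences passed, but this adjusted test could not decide whether the ratios differed.

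Expressed as shares of CPM per kilobase within a family, Camk2g made up 38.7% ± 2.4 (SD, n = 4) of CaMKII transcripts in ASPshSCR and 31.7% ± 1.6 (SD, n = 4) in ASPshDHPS, while Camk2b made up 1.27% and 1.19% and Camk2a was at or under 3 counts. Ppp3ca made up 71.6% ± 2.4 (SD, n = 4) of the calcineurin A transcripts in ASPshSCR and 76.7% ± 4.3 (SD, n = 4) in ASPshDHPS. With the longest transcripts these shares were 53.9% and 60.4%, so the share of Ppp3ca depends on the length taken.

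**Figure D4:**
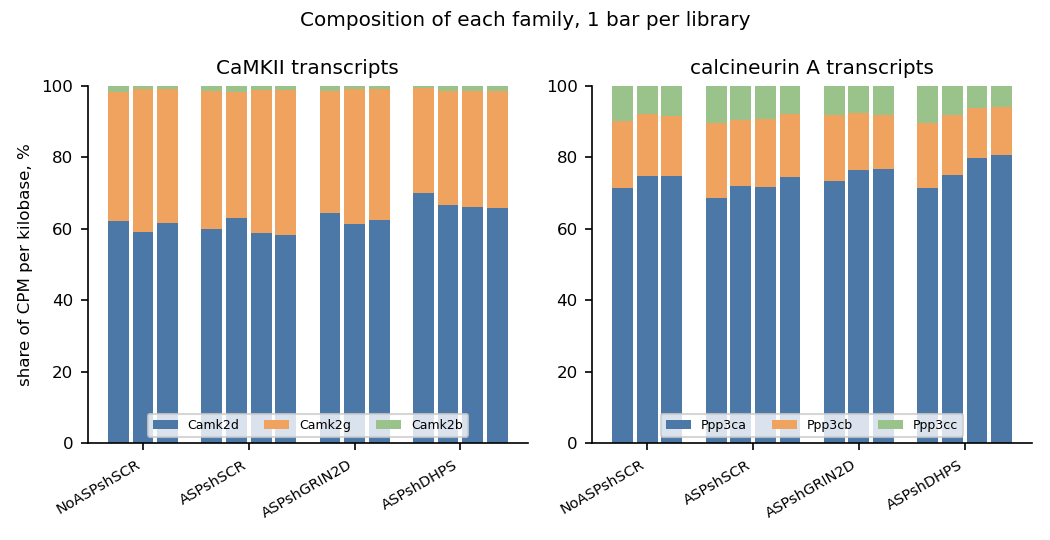
Share (%) of each gene in the summed CPM per kilobase of its family, 1 bar per library, for CaMKII and calcineurin A transcripts. The Camk2g band is narrower in the 4 ASPshDHPS bars, at 29.3% to 32.8%, than in the 4 ASPshSCR bars, at 35.3% to 40.6%.

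The 9 genes belong to a wider list of 96 calcium-signalling genes, of which 87 are other genes and 69 of those were in the table, 9 of them with at most 3 counts in every library. In ASPshGRIN2D against ASPshSCR 1 of the 69 was called higher and 0 lower, against 0.425% and 0.732% of all genes. In ASPshDHPS against ASPshSCR 3 were called higher and 5 lower, against 1.65% and 2.57% of all genes. For aspartate 0 were called with edgeR and with DESeq2. An unadjusted p under 0.05 was found for 5 of the 69 in ASPshGRIN2D, 24 in ASPshDHPS and 1 for aspartate, where 10.4%, 19.3% and 2.17% of all genes had one. Over the 69 genes of the whole list with more than 3 counts in some library, the median log2 fold change was 0.05 in ASPshGRIN2D, -0.06 in ASPshDHPS and 0.01 for aspartate, where the median of all 17274 such genes was 0.00 in each.

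The called gene in ASPshGRIN2D was another CaMKI isoform. Camk1d, the CaMKI delta gene, was read at 61.1, 60.5 and 56.8 CPM in ASPshGRIN2D against 37.0, 41.2, 38.8 and 41.2 CPM in ASPshSCR, and 37.5 to 47.1 CPM in NoASPshSCR. The 3 knockdown libraries were above all 7 control libraries. The log2 fold change over ASPshSCR was 0.59 ± 0.13 (SE) with an adjusted p of 0.0265, which rose above 0.05, to between 0.0606 and 0.140, in 6 of the 7 analyses that left out 1 library. It stayed below only without replicate 2 of ASPshSCR, at 0.0297. Against NoASPshSCR, Camk1d was not called in ASPshGRIN2D, at 0.49 ± 0.14 (SE, adjusted p 0.152). In ASPshDHPS its log2 fold change was 0.34 ± 0.12 (SE) with an adjusted p of 0.129, and replicate 4, at 63.8 CPM, was above every ASPshGRIN2D library.

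Around the receptor, 2 of the 4 scaffold genes were called lower in ASPshDHPS, where 2.57% of all genes were. Dlg4, which encodes the postsynaptic scaffold PSD-95, was read at 2.99, 3.33, 4.43 and 4.22 CPM there against 8.44, 10.8, 6.17 and 6.52 CPM in ASPshSCR, a log2 fold change of -1.09 ± 0.19 (SE) with an adjusted p of 0.00247. Dlg3, which encodes its relative SAP102, fell by 0.43 on the log2 scale (SE 0.10, adjusted p 0.0193). The call for Dlg3 was lost without replicate 2 of ASPshSCR (adjusted p 0.0620) or replicate 4 of ASPshDHPS (0.0547), and Dlg1 was not called at -0.19 ± 0.09 (SE). Against NoASPshSCR, Dlg4 was called in ASPshDHPS as well, at an adjusted p of 0.00721. Dlg3 was not called against that group, at -0.37 ± 0.11 (SE, adjusted p 0.0861). In ASPshGRIN2D the log2 fold change over ASPshSCR was 0.09 ± 0.20 (SE) for Dlg4 and -0.16 ± 0.11 (SE) for Dlg3.

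Among calcium entry channels and their sensors, 1 of 10 measured genes was called higher in ASPshDHPS, where 1.65% of all genes were. Orai2, a pore subunit of store-operated channels, was read at 16.9, 23.3, 17.8 and 21.8 CPM against 13.9, 12.9, 14.7 and 13.9 CPM in ASPshSCR, a log2 fold change of 0.52 ± 0.12 (SE) with an adjusted p of 0.0174. The call was lost without replicate 2 of ASPshSCR (adjusted p 0.0549) or replicate 2 of ASPshDHPS (0.0660). Stim1, a store calcium sensor that opens these channels, had a log2 fold change of 0.30 ± 0.09 (SE) with an adjusted p of 0.0692. The more abundant sensor Stim2 went the other way, at 65.4 CPM on average against 74.3 CPM in ASPshSCR. Its log2 fold change was -0.19 ± 0.08 (SE) with an adjusted p of 0.230, so neither sensor was called. None of the 14 store channels, pumps and exchangers in the count table was called in ASPshDHPS, where 4.22% of all genes were. Of the 14, 2 had at most 3 counts in every library. Of these 14, 5 had an unadjusted p under 0.05, where 19.3% of all genes had. The most abundant of them were Atp2a2, the pump of the endoplasmic reticulum, at 0.11 ± 0.09 (SE), Itpr3, an IP3-gated store channel, at -0.48 ± 0.15 (SE, adjusted p 0.0791), and Atp2b1, a plasma membrane pump, at 0.03 ± 0.10 (SE). Calm3 was not called in any of these comparisons, with a log2 fold change of -0.09 ± 0.08 (SE) in ASPshDHPS.

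Camk2n1, which encodes an inhibitor protein of CaMKII, fell in ASPshDHPS. It was read at 1.16, 1.47, 3.62 and 2.14 CPM against 5.95, 9.75, 4.07 and 4.95 CPM in ASPshSCR, a log2 fold change of -1.55 ± 0.32 (SE) with an adjusted p of 0.00660. NoASPshSCR had 6.37, 4.38 and 2.78 CPM and overlapped ASPshDHPS. Against NoASPshSCR Camk2n1 was not called, at -1.10 ± 0.34 (SE) with an adjusted p of 0.0987. The part of the lower Map2 and summed epithelial marker levels in the falls of Camk2n1, Dlg4 and Dlg3 was not tested. The other inhibitor gene, Camk2n2, had a log2 fold change of -0.01 ± 0.13 (SE). Of the calcium-activated kinases that do not need calmodulin, Prkca (-0.03 ± 0.11, SE) and Ptk2b (-0.34 ± 0.10, SE, adjusted p 0.0662) were not called.

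Of 5 listed calcineurin regulators (Rcan1, Rcan2, Rcan3, Cabin1 and Akap5) 2 were called higher in ASPshDHPS, where 1.65% of all genes were. Rcan1, a feedback inhibitor of calcineurin, was read at 46.9, 38.3, 51.8 and 44.5 CPM against 28.3, 20.2, 31.8 and 29.2 CPM in ASPshSCR, a log2 fold change of 0.73 ± 0.14 (SE) with an adjusted p of 0.00415. In ASPshGRIN2D it was read at 38.2, 34.8 and 37.0 CPM, above all ASPshSCR libraries, but its log2 fold change of 0.42 ± 0.15 (SE) had an adjusted p of 0.248. NoASPshSCR had 23.9, 38.1 and 31.0 CPM, so ASPshGRIN2D overlapped that group. Rcan2, its relative, rose by 1.48 ± 0.40 (SE, adjusted p 0.0360) on the log2 scale from a low level, 18 to 34 counts against 7 to 10, and the call was lost in all 8 analyses that left out 1 library, at adjusted p between 0.0529 and 0.107. Against NoASPshSCR, ASPshDHPS was not called for Rcan1 (0.55 ± 0.15, SE, adjusted p 0.0594) or for Rcan2 (1.62 ± 0.45, SE, adjusted p 0.0598). Rcan3, the most abundant of the 3 Rcan genes, was not called, at 57.8 CPM on average against 61.2 CPM in ASPshSCR and a log2 fold change of -0.08 ± 0.12 (SE, adjusted p 0.744). Cabin1, at a log2 fold change of 0.003 ± 0.14 (SE), and Akap5, at 1 to 3 counts against 0 to 4, were not called either.

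Of the 4 genes of NFAT factors, which calcineurin activates, 2 were called lower in ASPshDHPS, where 2.57% of all genes were. Nfatc2 was read at 14.8, 23.5, 18.3 and 22.5 CPM in ASPshDHPS against 26.5, 33.2, 25.3 and 30.3 CPM in ASPshSCR, a log2 fold change of -0.54 ± 0.14 (SE) with an adjusted p of 0.0230, which passed the threshold in 4 of the 8 analyses that left out 1 library. It was 0.0803 without replicate 2 and 0.0616 without replicate 4 of ASPshSCR, and 0.0682 without replicate 1 and 0.0810 without replicate 3 of ASPshDHPS. Nfatc4 had 4 to 9 counts against 14 to 38, a log2 fold change of -2.09 ± 0.46 (SE) with an adjusted p of 0.00872. Against NoASPshSCR, with 10 to 20 counts, Nfatc4 was not called, at -1.21 ± 0.51 (SE, adjusted p 0.221). Nfatc2 was called against NoASPshSCR as well, at an adjusted p of 0.0227. The more abundant Nfatc3 and Nfatc1 were not called, at -0.13 ± 0.09 (SE) and -0.18 ± 0.13 (SE). None of the 4 NFAT genes was called in ASPshGRIN2D, where 1.16% of all genes were. Nfatc2 had a log2 fold change of 0.15 ± 0.14 (SE) there.

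**Figure D5:**
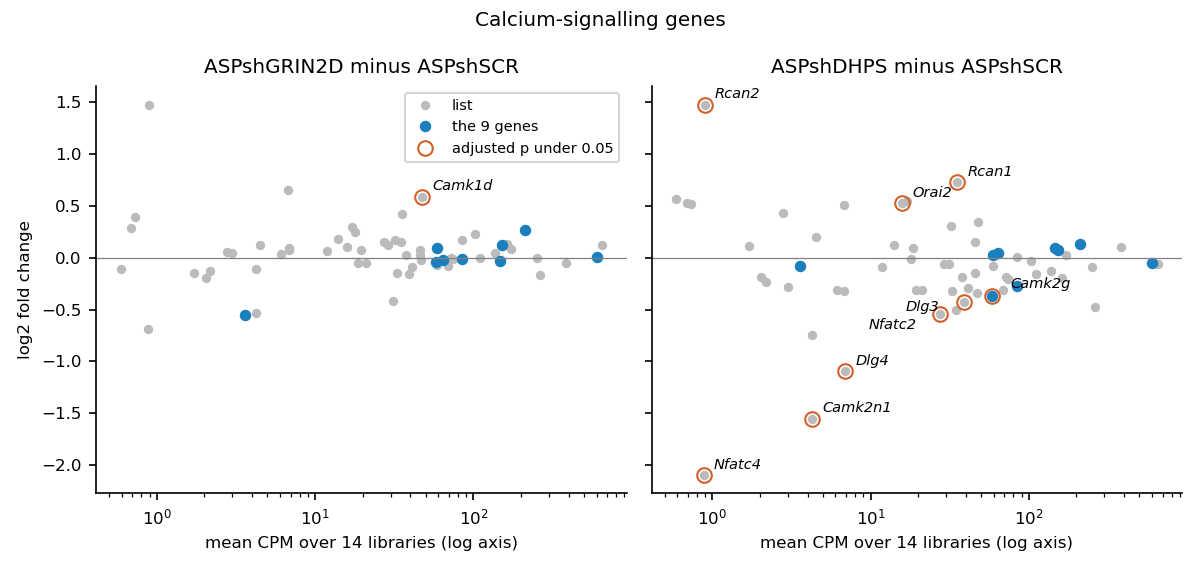
Log2 fold change (vertical axis) against mean CPM over the 14 libraries (horizontal log axis) for the 62 listed calcium genes with a mean of 0.5 CPM or more, in ASPshGRIN2D (left) and ASPshDHPS (right) against ASPshSCR; blue points are the 9 genes and red rings mark an adjusted p under 0.05. There is 1 ring on the left, Camk1d, and there are 9 on the right, of which Camk2g is 1 of the 9 genes.

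The genes whose profile was most like that of Grin2d were found by Pearson's r of log2 CPM over the 14 libraries among 9860 genes of 5 or more CPM on average. They were Terf2 (r = 0.89), Prr5 (0.87), Lmf2 (0.85), Recql4 (0.84) and Sfpq (0.83). Like Grin2d, all 5 had their lowest group mean in ASPshGRIN2D, which the choice by its profile favours. Terf2, a telomere-binding protein gene, averaged 47.9 CPM there and 53.5 CPM in ASPshSCR, so its spread was far smaller than that of Grin2d. These values are the highest of many and describe these libraries only.

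Among the 3 remaining pairs of groups 0 of the 9 genes were called. The pairs were ASPshDHPS against ASPshGRIN2D, where 2.82% of all genes were called, ASPshGRIN2D against NoASPshSCR, where 0.681% were, and ASPshDHPS against NoASPshSCR, where 1.81% were. An unadjusted p under 0.05 was found for 2 of the 9 (Camk2g and Ppp3cb), where 14.8% of all genes had one, for 1 (Grin2d), where 9.28% had, and for 1 (Camk2g), where 16.3% had, in that order. With DESeq2 Camk2g was called in both pairs with ASPshDHPS, at adjusted p of 0.00856 and 0.0173.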

How the data were processed

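Poly(A) libraries of cytosolic RNA from 14 spheroid samples were analysed, in groups taken from the sample labels. The authors trimmed reads with Trim Galore 0.6.6, checked them with FastQC 0.11.9, aligned them with STAR 2.6.1 to GRCm39, and quantified genes with Salmon 1.4.0. The deposited values are read counts per gene, rounded from Salmon estimates, and genes detected in fewer than 2 replicates in every condition had been dropped. The deposited tables of the authors' own comparisons (fold changes and p-values from DESeq2 1.34.0) were not used.

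From the counts, TMM factors (0.984 to 1.02), CPM and the quasi-likelihood test were computed with edgeR 4.0.16 in R 4.3.3, with group as the only term, over all 14 libraries and 19525 genes. Genes were called at a Benjamini-Hochberg adjusted p under 0.05, and 95% intervals are the log2 fold change with its SE and the t distribution. log2 CPM used a prior count of 2. Permutation tests used scipy 1.17.1, and p-values of ratios were adjusted over 9 tests, of which 6 are reported here. The fit was tested on simulated data before use. Alternatives were DESeq2 1.42.0, other scalings, a low-count filter, the compared groups alone, a replicate block, and leaving libraries out.

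The replicate numbers pair ASPshSCR with NoASPshSCR (correlations of deviations from group means 0.514, 0.287 and 0.203) and ASPshDHPS with NoASPshSCR (0.205, 0.307 and 0.373), by correlation alone. The other pairs of groups fell short of 0.1 for at least 1 number or share only 2 numbers. For ASPshDHPS with ASPshSCR the correlations were 0.258, 0.195, 0.201 and 0.0404, the last for replicate 4. Replicates are separate spheroid cultures by the study's statement.

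Counts per gene do not depend on which strand of a partner gene is read only if strand was used in quantification, which the sources used here do not give. Transcript lengths and coding sequences came from GENCODE M21 (GRCm38), another build than that of the counts, so no coordinates are given. The members and the lists were chosen with earlier results of these data known. All 9 members are named, and of the other listed genes those called in at least 1 main comparison and otherwise up to 3 of the highest mean CPM in a role. Beside these, the 5 genes most like Grin2d are named. The fibroblast marker Pdgfra had 357 to 730 counts.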

Additional observations from a re-analysis of the deposited data

How the results depend on the processing

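Over the 9 genes and their alternatives, 117 of 135 values of ASPshSCR against NoASPshSCR, 115 of 126 of ASPshGRIN2D against ASPshSCR and 124 of 135 of ASPshDHPS against ASPshSCR kept their direction and their side of the threshold. The reversals were of log2 fold changes near 0, at most 0.0870 from it under the alternative, and none was a called value. The cause of the changes below was not tested. Beyond these, Grin2d rests on 37 to 125 counts a library, and 3 against 4 libraries allow no exact permutation p under 0.0571.

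The number of the 9 genes called in ASPshDHPS against ASPshSCR was 1, and it was 2 with DESeq2 and with the replicate block. Leaving out 1 library gave 0 to 2, with 0 without replicate 4 of ASPshSCR or replicate 3 of ASPshDHPS and 2 without replicate 1 or replicate 2 of ASPshDHPS. In the 3 remaining pairs of groups the number was 0, and it was 2 with DESeq2 and without both control replicate 2 libraries, 1 with the low-count filter and with the replicate block, and 0 to 1 with 1 library left out, with 1 without replicate 2 of NoASPshSCR. Of the calcium list including the 9 genes, 1 was called in ASPshGRIN2D against ASPshSCR. This became 2 without scaling beyond library size, with the low-count filter, with the 2 groups alone, without both control replicate 2 libraries and with DESeq2, 4 with the replicate block, and 0 to 1 with 1 library left out. In ASPshDHPS against ASPshSCR 9 were called, 15 with DESeq2, 20 with the replicate block and 5 to 10 with 1 library left out, with 5 without replicate 2 of ASPshSCR.

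Over all genes 226 were called in ASPshGRIN2D against ASPshSCR, 374 with the 2 groups alone, 440 with DESeq2 and 86 to 208 with 1 library left out. In ASPshDHPS against ASPshSCR 824 were called, 1398 with DESeq2 and 412 to 894 with 1 library left out, with 412 without replicate 2 of ASPshSCR and 450 without replicate 3 of ASPshDHPS.

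With the replicate number as a block, the calls over all genes were 611 in ASPshGRIN2D against ASPshSCR and 2150 in ASPshDHPS against ASPshSCR. In these pairs and in ASPshDHPS against ASPshGRIN2D the correlations did not show pairing for every number. There 1 of 6, 5 of 8 and 2 of 6 samples correlated best with their own number. Whether ASPshSCR and ASPshDHPS, which both pair with NoASPshSCR, share more than the number was not tested. In these pairs the block gave an adjusted p of 0.0300 for Ppp3cb and 0.0100 for Camk2g, in ASPshDHPS against ASPshSCR and against ASPshGRIN2D, and 0.0518 for Ppp3ca in ASPshGRIN2D against ASPshSCR. In the paired comparisons the block changed no call of the 9 genes, with Camk2g at 0.0566 in ASPshDHPS against NoASPshSCR.

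The reversed log2 fold changes in ASPshGRIN2D against ASPshSCR were those of Camk1, at 0.0110 without both control replicate 2 libraries, and of Calm2, at -0.0123 without scaling, -0.00513 with the block and -0.00905 without both control replicate 2 libraries. Leaving out 1 library gave -0.0561 to 0.0253 for Camk1, -0.0793 to 0.000333 for Camk2g, -0.0733 to 0.0367 for Ppp3cb and -0.0138 to 0.0265 for Calm2. In ASPshSCR against NoASPshSCR the change without scaling was -0.00673 for Camk2d and -0.00991 for Ppp3r1. With the block it was -0.00298 for Camk2d, 0.0135 for Camkk2, 0.0323 for Ppp3ca and -0.0432 for Ppp3r1, the last being -0.00991 in the 7 control libraries alone. Without both control replicate 2 libraries it was -0.0229 for Camk2d, 0.0241 for Camkk2 and -0.0124 for Ppp3r1. Leaving out 1 library gave -0.0367 to 0.0933 for Camk1, -0.0491 to 0.0601 for Camk2d, -0.0452 to 0.0178 for Camkk2 and -0.0198 to 0.0263 for Ppp3r1. In ASPshDHPS against ASPshSCR it gave -0.259 to 0.0870 for Grin2d, -0.0346 to 0.0891 for Camk1, -0.0298 to 0.0896 for Camkk2 and -0.0232 to 0.149 for Ppp3r1.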
